A study of Zea mays with 9 samples.

Results

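Tassels of maize plants carrying the Bif1 and Bif4 mutations were compared with wildtype tassels by RNA sequencing, across all genes. The comparison used 5 of the 9 libraries of the series, namely 2 of Bif1;Bif4 and 3 of wildtype, chosen by their genotype labels. The remaining 4 libraries came from ndl1 mutant tassels and entered only a direct comparison of selected genes. Every plant was in the B73 inbred background and grown in the field, and tassels were taken at a length of 2 to 4 mm. Bif1;Bif4 plants were double heterozygous, so each plant also carried a normal copy of both genes. The labels name no allele and do not say whether the libraries came from separate plants or pools, so a p-value reflects nothing beyond the variation among these 5 libraries, which may be technical.

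Bif1 and Bif4 encode Aux/IAA proteins, which hold back auxin response factors (ARFs) until auxin triggers their degradation. Semidominant mutations of this kind stabilize the repressor and block the auxin response. In a young tassel, auxin maxima on the flanks of the inflorescence meristem mark where axillary meristems arise, and these give rise to branches, spikelet pairs, spikelets and florets. Plants in which this step fails form bare, barren inflorescences.

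The 5 libraries held 16863087 to 21300747 reads counted to genes, and their 10 most abundant genes took 2.48% to 3.08% of the reads. In a principal component analysis of the 22381 genes tested, the first component, with 54.5% of the variance, set both Bif1;Bif4 libraries, at 47.7 and 57.1, apart from the wildtype libraries, at -36.7, -44.3 and -23.8. The second component, with 21.0%, spread the libraries within each genotype, from -23.5 to 21.5 in Bif1;Bif4 and from -37.9 to 33.6 in wildtype. Markers of meristem tissue differed in their presence. The homeobox gene kn1, which marks indeterminate meristem cells, was abundant in both genotypes. It lay between 5796 and 8534 normalized counts, that is, reads divided by the size factor of the library. Of the other markers, TD1 was also detected in both genotypes, as was wus1 at low counts that overlapped. By contrast, BA1, ra1, ra3 and bd1 had low counts or none in Bif1;Bif4 (all described below).

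Transcripts of the mutated genes overlapped between the genotypes. BIF1 (GRMZM2G130953, also listed as AUX22) stood at 138 and 451 normalized counts in the Bif1;Bif4 libraries and at 391, 486 and 239 in wildtype. BIF4 (GRMZM5G864847) stood at 105 and 207 against 261, 244 and 151. The replicate 1 library of Bif1;Bif4 was the lowest of the 5 for both genes, and replicate 2 lay within the wildtype range. The log2 fold changes, as differences of mean log2(normalized count + 1), were -0.51 ± 0.50 (SE) for BIF1 and -0.52 ± 0.34 for BIF4, with limma Benjamini-Hochberg adjusted p = 0.589 and 0.406. Without replicate 1 of Bif1;Bif4 the value for BIF1 turned to 0.34. The level of either transcript is thus no check of the genotype.

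Bif1;Bif4 tassels had very low levels of BA1, baf1 and ra1, genes of axillary meristem initiation and branch determinacy, and lower levels of several chaperone genes, while the largest rises belonged to identifiers with no name in the reference. In all, 957 genes passed the test (limma with an intensity trend, Benjamini-Hochberg adjusted p under 0.05), which is 4.28% of the genes tested. Of these, 498 were higher in Bif1;Bif4 (2.23%) and 459 lower (2.05%). The median absolute log2 fold change of the genes that passed was 0.89, and 227 rose and 191 fell by more than 1 log2 unit. The Bif1;Bif4 and wildtype libraries did not overlap for any of the 957, while 42.1% of all genes tested showed no overlap. The edgeR quasi-likelihood test on the recovered reads gave 944 genes (4.22% of those tested, with 2.31% higher and 1.9% lower), of which 914 were shared in the same direction. DESeq2 gave 2105 (9.41%, with 4.88% higher and 4.52% lower), of which 954 were shared in the same direction. The authors' deposited table lists 2028 genes under the same threshold, of which 939 were shared in the same direction. Of genes named below, ra3, hsp22 and GRMZM2G389015 did not reach it there (DESeq2 adjusted p = 0.0798, 0.0706 and 0.404). Their deposited log2 fold changes were -0.47, -0.51 and 0.15, against -5.94, -4.21 and 7.61 with limma. Deposited values were also smaller in size for genes that passed there, at -3.34 for BA1 and -1.43 for ra1, against -6.15 and -6.03 with limma. With DESeq2 on the recovered reads ra3, hsp22 and GRMZM2G389015 passed (adjusted p = 2.42e-05, 0.00142 and 0.00172). The log2 fold changes of ra3 and hsp22 were then -5.43 and -3.89.

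The count of genes that passed depended on which libraries entered. Without wildtype replicate 2 only 1 gene passed with limma, although 3684 genes still had an unadjusted p under 0.05. Without replicate 1 or replicate 2 of Bif1;Bif4 the count was 48 or 29, and the lone Bif1;Bif4 library was then assumed to vary like the wildtype libraries. Without wildtype replicate 1 it was 492, and without wildtype replicate 3 it was 1299. Each of the 957 genes that could still be tested kept its direction whichever library was left out. Since the groups did not overlap for any of them, no other outcome was possible.

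**Figure D1:**
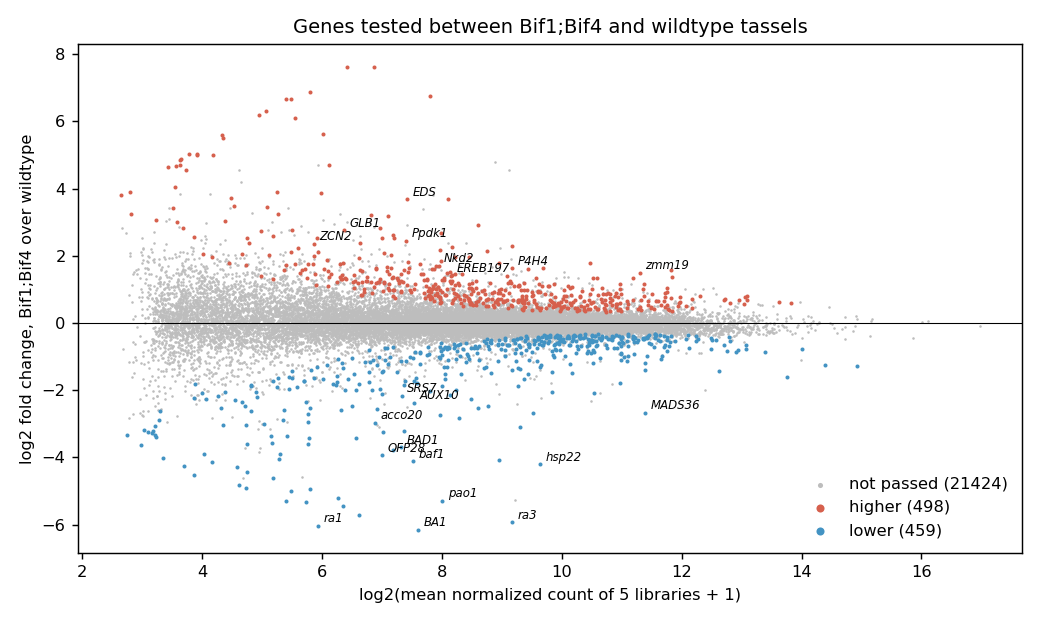
Log2 fold change of Bif1;Bif4 over wildtype (y axis) against log2 of the mean normalized count of the 5 libraries plus 1 (x axis), 1 point per gene tested. The 498 genes higher in Bif1;Bif4 and the 459 lower are coloured. Names stand beside most of the strongest named changes. Among them, BA1, ra1 and ra3 lie lowest, near -6, and MADS36 is the most abundant of those that fell.

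Regulators of axillary meristem initiation were examined first. Of the 9 members of this list, all were tested, 4 fell, none rose and 5 did not pass, against 2.05% of all genes tested that fell. The median log2 fold change of the list was -1.20, and that of all genes tested was 0.0026. BA1 (barren stalk1, GRMZM2G397518) encodes a bHLH transcription factor needed for axillary meristems to form. It stood at 5.4 and 2.1 normalized counts in Bif1;Bif4 and at 388, 332 and 244 in wildtype. Its transcript was thus close to absent in both mutant libraries and abundant in every wildtype library. The log2 fold change was -6.15 ± 0.37 (Benjamini-Hochberg adjusted p = 0.00303, limma). Among genes with a mean of at least 50 normalized counts BA1 and ra1 fell the most on this scale, and their order depends on the added 1: with edgeR the log2 fold changes were -6.34 for BA1 and -7.37 for ra1. In bulk tissue, fewer cells of the type that expresses a gene and less RNA per cell cannot be told apart.

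The gene baf1 (barren stalk fastigiate1, GRMZM2G072274) encodes an AT-hook protein that acts in the same step. It stood at 12.5 and 19.9 normalized counts in Bif1;Bif4 and at 310, 326 and 244 in wildtype, with no overlap between the groups. Its log2 fold change was -4.12 ± 0.25 (Benjamini-Hochberg adjusted p = 0.00303, limma). BAD1 (branch angle defective1, GRMZM2G110242), a TCP transcription factor gene that promotes growth of the pulvinus at the base of tassel branches, stood at 26.8 and 12.5 against 256, 232.5 and 264. The 3 wildtype libraries were close to each other, and both mutant libraries lay far below them. Its log2 fold change was -3.70 ± 0.31 (Benjamini-Hochberg adjusted p = 0.00642, limma). BAD1 was the only member that fell among the 7 tested genes of the TCP family, and no TCP gene rose.

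The NAC gene nam1 (GRMZM2G393433, also listed as CUC2), a member of the family whose genes mark organ boundaries, stood at 337 and 286 normalized counts in Bif1;Bif4 and at 1159.7, 1501 and 1269 in wildtype. The groups did not overlap, and nam1 was readily detected in both mutant libraries. The log2 fold change was -2.07 ± 0.13 (Benjamini-Hochberg adjusted p = 0.00316, limma). The protein kinase gene bif2 (GRMZM2G171822), a relative of PINOID of Arabidopsis that acts in polar auxin transport, stood at 31.3 and 63.7 against 103, 125 and 87.0. All mutant values lay below all wildtype values, but the log2 fold change of -1.20 ± 0.33 did not pass (Benjamini-Hochberg adjusted p = 0.0935, limma). The members BIF1 and BIF4 are described above. The identifiers listed as gt1 (GRMZM2G005624) and GT1 (GRMZM2G421491) did not pass either, with log2 fold changes of -0.43 and 0.57. The same number of members, 4, passed without either Bif1;Bif4 library and without wildtype replicate 1 or 3. Without wildtype replicate 2, none passed, and BA1, baf1 and nam1 each stood at a limma Benjamini-Hochberg adjusted p of 0.0517.

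**Figure D2:**
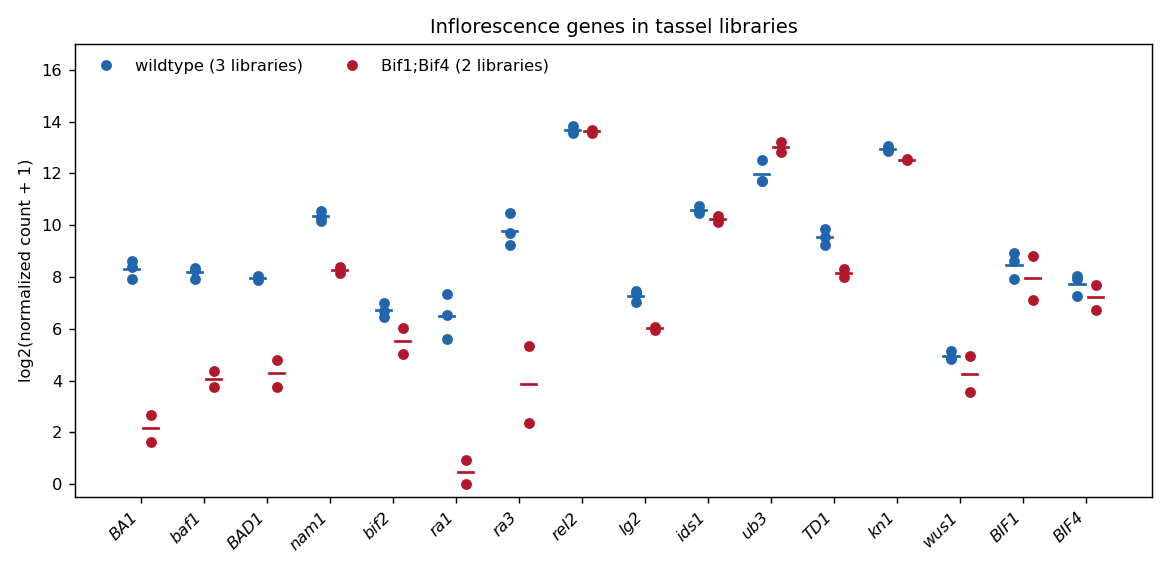
Levels of 16 inflorescence genes on a log2(normalized count + 1) axis, with 1 point per library and a bar at the group mean. The Bif1;Bif4 points of BA1, baf1, BAD1, ra1 and ra3 lie far below the wildtype points, while rel2, BIF1 and BIF4 overlap between the genotypes.

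Genes of the ramosa pathway limit the branching of spikelet pair meristems, so that these make spikelets and not long branches. The C2H2 zinc finger gene ra1 (GRMZM2G003927) stood at 0.9 and 0.0 normalized counts in Bif1;Bif4 and at 48.1, 90.9 and 161 in wildtype. Over the groups these were 1 read against 286, and scaled for depth the level was 201-fold lower in Bif1;Bif4 (95% interval 35.8 to 7959, counting error only). The log2 fold change was -6.03 ± 0.58 (Benjamini-Hochberg adjusted p = 0.00768, limma). The gene ra3 (GRMZM2G014729), which encodes a trehalose-6-phosphate phosphatase, stood at 39.3 and 4.2 against 599, 819.9 and 1417. The mutant libraries differed from each other, yet both lay far below every wildtype library. Its log2 fold change was -5.94 ± 0.80 (Benjamini-Hochberg adjusted p = 0.0182, limma).

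The other tested members encode transcriptional corepressors. The gene rel2 (ramosa1 enhancer locus2, GRMZM2G042992), whose product is related to TOPLESS of Arabidopsis, stood at 13106 and 12136 normalized counts in Bif1;Bif4 and at 14653, 13227 and 12004 in wildtype. The groups overlapped, with a log2 fold change of -0.07 ± 0.11. Its relatives RELK2 and RELK3 had log2 fold changes of 0.18 ± 0.08 and -0.03 ± 0.07 and did not pass. Thus 2 of the 5 tested members fell and 3 did not pass. Without wildtype replicate 2, neither ra1 nor ra3 passed, at limma Benjamini-Hochberg adjusted p = 0.0708 and 0.104. Without replicate 1 of Bif1;Bif4 ra3 still passed at 0.0234 and ra1 did not at 0.0598, and without replicate 2 neither passed, at 0.0788 and 0.0858 (limma, Benjamini-Hochberg adjusted).

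The next list held genes that act in spikelet and glume formation, together with others such as the liguleless genes lg1 and lg2. Of the 10 members tested, 2 fell, none rose and 8 did not pass, with a median log2 fold change of -0.35. The members that fell were lg2 and lg1, and the share of all genes tested that fell was 2.05%. Without wildtype replicate 2 no member passed. Without wildtype replicate 1, 2 rose and 1 fell, and without wildtype replicate 3, 3 fell. The bZIP gene lg2 (liguleless2, GRMZM2G060216), which also affects tassel branch number, stood at 67.0 and 61.7 normalized counts in Bif1;Bif4 and at 176, 159.8 and 132 in wildtype. Its log2 fold change was -1.25 ± 0.19 (Benjamini-Hochberg adjusted p = 0.0219, limma). The SBP box gene lg1 (liguleless1, GRMZM2G036297) fell by 1.16 ± 0.24 on the log2 scale, close to the threshold (limma, Benjamini-Hochberg adjusted p = 0.047, against 0.0528 with edgeR). The AP2/ERF gene bd1 (branched silkless1, GRMZM2G307119), which gives spikelet meristems their identity, had no read in Bif1;Bif4 and stood at 2.9, 68.9 and 51.5 in wildtype. Against a floor of 3 reads over the group it was at least 28.1-fold lower, but the wildtype libraries differed widely among themselves and the gene did not pass (Benjamini-Hochberg adjusted p = 0.0865, limma).

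The unbranched genes ub2 and ub3, both of the SBP box family, lay higher in each Bif1;Bif4 library than in each wildtype library. The normalized counts of ub3 (GRMZM2G460544) were 7248 and 9607 against 5868, 3329 and 3320.4, and those of ub2 (GRMZM2G160917) were 3162 and 3305 against 2824, 1706 and 1665. The log2 fold changes of 1.05 ± 0.26 and 0.69 ± 0.22 did not pass (limma, Benjamini-Hochberg adjusted p = 0.0754 and 0.126). In the SBP box family as a whole, 2 of 22 tested members rose and 1 fell, that being lg1, beside 2.23% and 2.05% of all genes tested. None of the 22 passed without replicate 1 of Bif1;Bif4, without replicate 2 of Bif1;Bif4 or without wildtype replicate 2, and without wildtype replicate 1 there were 4 that rose. The gene sbp2 (GRMZM2G168229) rose from 48.1, 96.6 and 89.3 in wildtype to 221 and 218 normalized counts, by 1.55 ± 0.31 on the log2 scale. The abundant sbp29 (GRMZM2G067624) rose from 7091, 6744 and 6294 to 10797 and 12544, by 0.80 ± 0.10. The AP2 genes ids1 and sid1, which limit the number of florets, both had log2 fold changes of -0.35 and did not pass, and the LEAFY relative zfl1 stood at -0.59 ± 0.14 without passing (Benjamini-Hochberg adjusted p = 0.0681, limma).

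Meristem maintenance genes, which include the homeobox genes of meristem cells and the CLAVATA-type receptors that limit meristem size, were lower where they changed. Of 34 members 25 were tested, of which 5 fell (2.05% of all genes tested did), none rose and 20 did not pass. The median log2 fold change was -0.47, and without replicate 1 or replicate 2 of Bif1;Bif4 it was -0.40 or -0.44. A lone Bif1;Bif4 library has no spread of its own, so these medians do not show that any member still passed. Leaving out wildtype replicate 1 left 1 member that fell, leaving out wildtype replicate 2 left none, and leaving out wildtype replicate 3 left 5. The receptor kinase gene TD1 (thick tassel dwarf1, GRMZM2G300133, also listed as KIN5), related to CLAVATA1 of Arabidopsis, stood at 254 and 319 normalized counts in Bif1;Bif4 and at 753, 926 and 610.1 in wildtype. The groups did not overlap, and the log2 fold change was -1.40 ± 0.19 (Benjamini-Hochberg adjusted p = 0.0181, limma). The homeobox genes wox3A (GRMZM2G122537) and wox9C (GRMZM2G409881) fell by 1.65 ± 0.30 and 1.12 ± 0.20, and the MYB gene rs2 (rough sheath2), which keeps knotted-type genes off in leaves, fell by 0.67 ± 0.13.

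The gene kn1 (GRMZM2G017087) stood at 5796 and 5983 normalized counts in Bif1;Bif4 and at 7544, 8534 and 7603 in wildtype. This was a small fall, of 0.42 ± 0.09 on the log2 scale, at the edge of the threshold (limma, Benjamini-Hochberg adjusted p = 0.0479, against 0.0504 with edgeR). The homeobox gene wus1, a marker of the organizing centre of the meristem, had few reads, with normalized counts of 10.7 and 30.3 against 27.9, 34.4 and 28.6, and the groups overlapped. The receptor genes fea2 and fea3 stood at log2 fold changes of 0.24 ± 0.13 and 0.83 ± 0.19, and the G protein subunit gene ct2 at 0.02 ± 0.10, none of which passed. All values of fea3 in Bif1;Bif4, 690.2 and 505, exceeded those in wildtype, 330.1, 397 and 276.

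Auxin signalling genes include the family of the mutated genes. Of 39 Aux/IAA and ARF members 34 were tested, of which 1 rose, 2 fell and 31 did not pass, with a median log2 fold change of 0.27. Beside the 2.23% of all genes tested that rose and the 2.05% that fell, the rise of 1 of 34 is near the background. The Aux/IAA gene AUX10 (GRMZM2G057067) stood at 70.5 and 34.5 normalized counts in Bif1;Bif4 and at 177, 351 and 289.6 in wildtype, a log2 fold change of -2.38 ± 0.38 (Benjamini-Hochberg adjusted p = 0.026, limma). The genes ARF11 (GRMZM2G056120) and ARF13 (GRMZM2G378580) encode ARFs, which bind auxin-responsive promoters. ARF11 fell by 0.73 ± 0.11, and ARF13 rose by 0.60 ± 0.10, from 12991, 11944 and 11067 in wildtype to 17435 and 18773. The summed level of all 39 Aux/IAA and ARF members was 83986 to 84368 normalized counts in Bif1;Bif4 and 66950.4 to 67925 in wildtype. This sum gives most weight to abundant members such as ARF13, so it does not describe the family member by member. Without wildtype replicate 2 none of the 34 passed. Without wildtype replicate 1, 1 rose and 2 fell, and without wildtype replicate 3, 2 rose and 2 fell.

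None of the 8 tested genes of auxin synthesis, transport and conjugation passed. The PIN genes encode auxin efflux carriers. PIN1a (GRMZM2G098643) stood at 3159 and 4678 normalized counts against 3960.4, 4738 and 3699, with overlapping groups. PIN10a (GRMZM2G126260) stood at 172 and 20.9 against 1.0, 9.6 and 8.0, so that the mutant libraries lay above wildtype but far apart from each other, and its log2 fold change of 3.42 ± 1.04 did not pass (Benjamini-Hochberg adjusted p = 0.114, limma). The GH3 gene (GRMZM2G378106), named for a family that joins auxin to amino acids, stood at 256 and 651 against 175, 120 and 162.5, with a log2 fold change of 1.44 ± 0.38 that did not pass (Benjamini-Hochberg adjusted p = 0.0839, limma). The YUCCA-type auxin synthesis gene spi1 stood at -0.18 ± 0.17. Among the other hormone lists, none of 29 tested cytokinin genes passed, and 1 of 5 tested gibberellin and brassinosteroid genes rose, the DELLA gene D8 by 0.35 ± 0.07 (limma, Benjamini-Hochberg adjusted p = 0.047, against 0.0511 with edgeR).

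**Figure D3:**
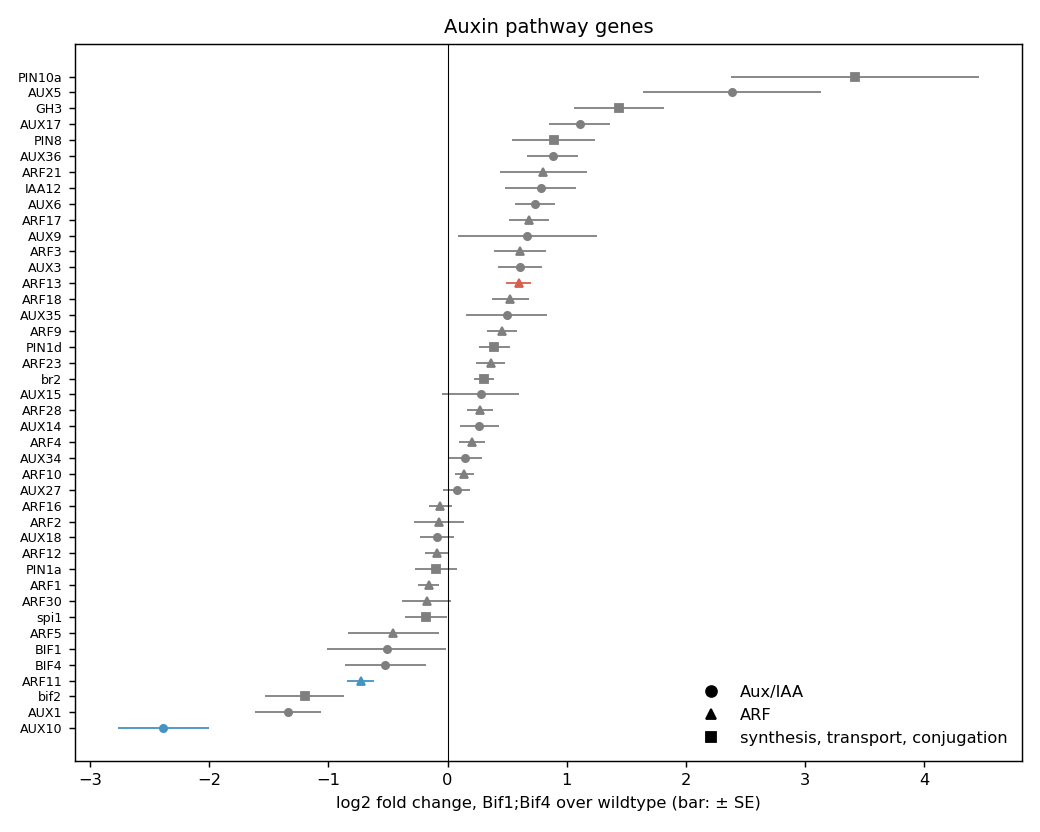
Log2 fold change of Bif1;Bif4 over wildtype (x axis, bars ± SE) for each tested gene of auxin signalling and of auxin synthesis, transport and conjugation (y axis). Only AUX10 and ARF11 (lower, blue) and ARF13 (higher, red) passed, and the mutated genes BIF1 and BIF4 lie near -0.5.

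MADS box genes, which specify spikelet and floral organs, changed in both directions. Of 34 members 21 were tested, of which 2 rose, 6 fell and 13 did not pass (2.23% and 2.05% of all genes tested rose and fell). The median log2 fold change was -0.27. Without wildtype replicate 2 no member passed. Leaving out wildtype replicate 1 left 2 that rose and 4 that fell, and leaving out wildtype replicate 3 left 1 and 4. The median was -0.67 or -0.23 without replicate 1 or replicate 2 of Bif1;Bif4. A lone Bif1;Bif4 library has no spread of its own, so these medians do not show which members still passed. MADS36 (GRMZM2G079727) stood at 520.5 and 763 normalized counts in Bif1;Bif4 and at 4090.3, 4364 and 3684 in wildtype. Every wildtype library lay several-fold above both mutant libraries, and the log2 fold change was -2.68 ± 0.16 (Benjamini-Hochberg adjusted p = 0.00303, limma). The gene zmm16 (GRMZM2G110153), a B-class gene of the type that specifies stamens, stood at 189 and 241 against 498.5, 522 and 622 and fell by 1.35 ± 0.15. The other members that fell were zmm6, MADS76, ZAGL1 and m5, with log2 fold changes of -3.17, -1.53, -0.60 and -0.54, and zmm6 had at most 14.9 normalized counts in any library.

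In the opposite direction, zmm19 (GRMZM2G370777), the gene of the Tunicate locus whose ectopic activity encloses kernels in glumes, stood at 4064 and 4015 normalized counts in Bif1;Bif4 and at 2031, 896.5 and 1624 in wildtype. The mutant libraries agreed closely and lay above all wildtype libraries, with a log2 fold change of 1.49 ± 0.31 (Benjamini-Hochberg adjusted p = 0.0475, limma). The gene zmm31 rose by 0.55 ± 0.09.

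Among organ polarity and leaf growth genes, 40 were tested, of which 4 rose, 6 fell and 30 did not pass (2.23% and 2.05% of all genes tested rose and fell). Without wildtype replicate 2 no member passed. Leaving out wildtype replicate 1 left 1 that rose and 1 that fell, and leaving out wildtype replicate 3 left 5 and 5. The median log2 fold change was 0.085, and without replicate 1 or replicate 2 of Bif1;Bif4 it was 0.039 or 0.11. A lone Bif1;Bif4 library has no spread of its own, so these medians do not show that any member still passed. The growth-regulating factor (GRF) family went both ways. GRF9 (GRMZM5G893117) stood at 138 and 195 normalized counts in Bif1;Bif4 and at 45.2, 56.4 and 66.4 in wildtype, a rise of 1.55 ± 0.25. GRF3 (GRMZM2G105335) rose by 0.96 and GRF12 by 0.40, while GRF1 (GRMZM2G034876) fell by 1.21, GRF13 by 0.58 and GRF5 by 0.56. The other members that passed were rld2, a homeobox gene of organ polarity, which rose by 0.41, and wox3A, lg2 and rs2, given above.

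**Figure D4:**
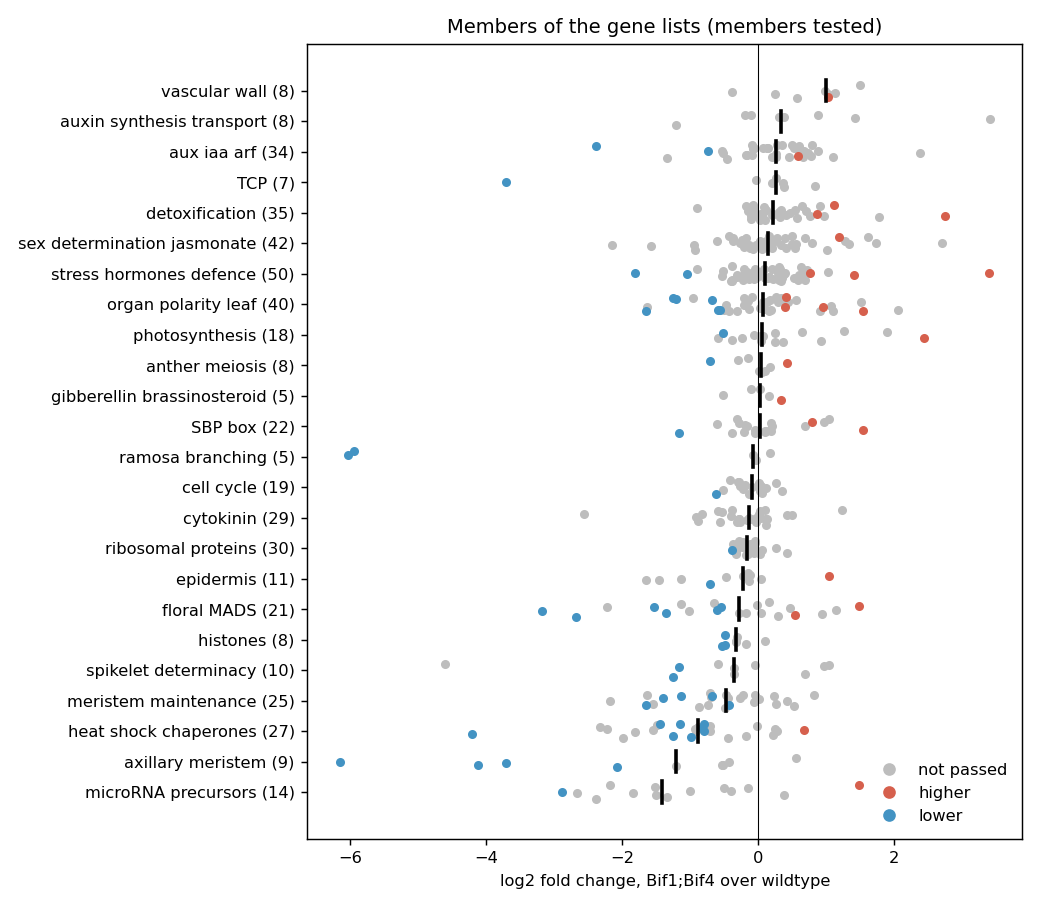
Log2 fold change of Bif1;Bif4 over wildtype (x axis) for the tested members of the 24 gene lists, with 1 point per gene, coloured where it passed the test, and a black bar at the list's median. Lists are ordered by median, from microRNA precursors at -1.41 to vascular and wall genes at 1.01, and the number tested stands in parentheses.

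Most protein folding genes that passed the test were lower in Bif1;Bif4. Of 30 heat shock and chaperone members 27 were tested, of which 8 fell (2.05% of all genes tested did), 1 rose and 18 did not pass, with a median log2 fold change of -0.88 and 23 of the 27 values below 0. The summed level of all 30 members was 108822 and 91725 normalized counts in the Bif1;Bif4 libraries and 179881, 182494 and 148450 in wildtype. The genes that fell belong to several compartments. In the endoplasmic reticulum, where they fold and retain secretory proteins, these were the BiP genes bip1 (GRMZM2G114793) and bip2, the calnexin gene CNX (GRMZM2G022180) and the calreticulin gene CRT. The normalized counts of bip1 were 3652 and 2612 against 9438, 9443 and 6505, with a log2 fold change of -1.43 ± 0.21 (Benjamini-Hochberg adjusted p = 0.0203, limma). CNX stood at 5786 and 5183 against 9955, 9701 and 8824, a fall of 0.79 ± 0.09, and CRT and bip2 fell by 0.78 and 1.14.

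In mitochondria, the chaperonin genes CPNB (GRMZM2G416120, also listed as CPN60II) and HSP60-1 (GRMZM2G458208) fell by 0.82 ± 0.12 and 0.97 ± 0.20. CPNB stood at 4755 and 4655 normalized counts in Bif1;Bif4 and at 9555, 8343 and 7228 in wildtype. HSP90-2 (GRMZM2G012631), of a chaperone family that matures signalling proteins, fell by 1.24 ± 0.21. The small heat shock protein gene hsp22 (GRMZM2G007729) stood at 144 and 26.1 against 1086, 1992 and 718. Both mutant libraries lay below all wildtype libraries, although the values spread widely within each genotype, and the log2 fold change was -4.21 ± 0.71 (Benjamini-Hochberg adjusted p = 0.0294, limma). The heat shock factor gene HSF2 (GRMZM2G088242) was the only member that rose, by 0.68 ± 0.11. No member of this list passed without replicate 1 of Bif1;Bif4, without replicate 2 of Bif1;Bif4 or without wildtype replicate 2, although the list's median then still lay between -0.94 and -0.78. Without wildtype replicate 1, 4 members fell, and without wildtype replicate 3, 13 fell.

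**Figure D5:**
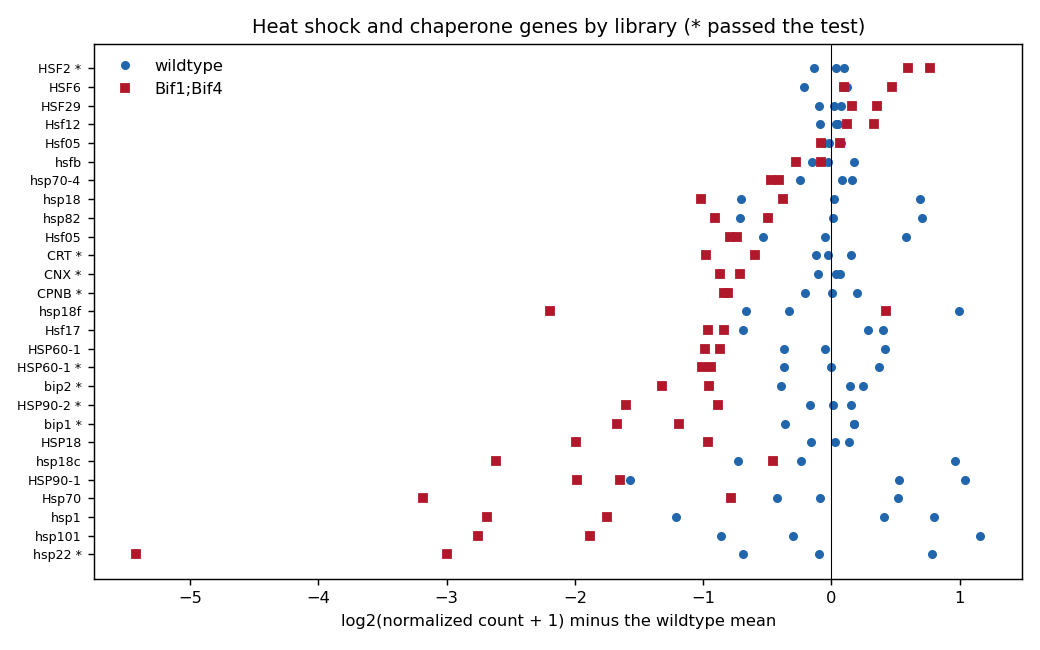
Level of each of the 27 tested heat shock and chaperone genes in each library, as log2(normalized count + 1) minus the wildtype mean (x axis); names that appear more than once belong to different identifiers. Genes marked with an asterisk passed the test, and 23 of the 27 have a negative log2 fold change.

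Among genes with a name and a mean of at least 50 normalized counts, the 12 strongest falls included BA1, ra1, ra3, hsp22, baf1, BAD1, MADS36 and AUX10, described above. The polyamine oxidase gene pao1 (GRMZM2G034152) stood at 15.2 and 4.2 normalized counts in Bif1;Bif4 and at 145, 539.6 and 579 in wildtype, a log2 fold change of -5.29 ± 0.71 (Benjamini-Hochberg adjusted p = 0.0181, limma). OFP28 (GRMZM2G122709), of the OVATE family of growth repressors, stood at 8.9 and 16.7 against 219, 224 and 169. The wildtype libraries of OFP28 varied little, and its log2 fold change was -3.94 ± 0.30 (Benjamini-Hochberg adjusted p = 0.00457, limma). The gene acco20 (GRMZM2G126732), named for ACC oxidase, the last enzyme of ethylene synthesis, fell by 2.96 ± 0.39. SRS7 (GRMZM2G135783), of the SHI-related zinc finger family, fell by 2.16 ± 0.21, from 214, 293 and 192 to 52.7 and 48.1.

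Under the same limit of 50 normalized counts, the 12 strongest rises of named genes ran from 1.41 to 3.69 and were smaller than the largest falls, which ran from -2.16 to -6.15. EDS (GRMZM2G010356, also listed as the terpene synthase gene TPS17) stood at 244 and 511 normalized counts in Bif1;Bif4 and at 61.6, 14.4 and 20.6 in wildtype, a log2 fold change of 3.69 ± 0.61 (Benjamini-Hochberg adjusted p = 0.0285, limma). GLB1 (GRMZM2G067402), a gene for a plant hemoglobin, rose by 2.75 ± 0.56. The pyruvate phosphate dikinase gene Ppdk1 (GRMZM2G306345), whose product serves C4 photosynthesis in leaves, rose by 2.45 ± 0.48. ZCN2 (GRMZM2G156079), of the family of FT and TFL1 of Arabidopsis, which sets flowering and inflorescence architecture, rose by 2.36 ± 0.40.

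Nkd2 and P4H4 rose with little spread among the libraries. Nkd2 (naked endosperm2, GRMZM5G884137, also listed as IDD9), a zinc finger gene first known from the aleurone, stood at 403 and 439.9 normalized counts in Bif1;Bif4 and at 131, 119.6 and 136 in wildtype, a rise of 1.70 ± 0.13 (Benjamini-Hochberg adjusted p = 0.00457, limma). P4H4 (GRMZM5G843555), a prolyl 4-hydroxylase gene, stood at 1080.4 and 854 against 273, 339.6 and 320.5 and rose by 1.63 ± 0.14. The rest of the 12 were BURP10 at 1.66, GRF9, sbp2, zmm19, the cellulase gene Cel18/34 at 1.42 and the AP2/ERF gene EREB197 at 1.41.

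The 2 largest rises of any annotation belonged to identifiers with no name in the reference, and neither had a read in wildtype. GRMZM2G389015 stood at 503 and 75.2 normalized counts in Bif1;Bif4, from 635 reads, which was at least 301-fold above a floor of 3 reads over the wildtype group. GRMZM2G032887 stood at 127 and 298, from 427 reads, at least 203-fold above that floor. The mutant libraries differed from each other in opposite directions for these identifiers.

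Markers of other cell types in the tassel were counted in the same way. Of 11 tested epidermis genes, the lipid transfer protein gene LTP3 (GRMZM2G126397) rose by 1.05 ± 0.11 and the homeobox gene ocl4 (GRMZM2G123140) fell by 0.70 ± 0.10, while 9 of the 11 values were negative, with a median log2 fold change of -0.22. LTP3 alone stood at 4736 and 5251 normalized counts in Bif1;Bif4 and at 2577, 2550 and 2118 in wildtype, and with it the summed level of the list was 12465 to 12635 against 10685 to 11929. Of 8 tested vascular and wall genes, the lignin gene CCR (GRMZM2G131205, cinnamoyl-CoA reductase) rose by 1.04 ± 0.21, and 7 of 8 values were positive. The summed level of all 12 members, tested or not, was 2458 to 3737 in Bif1;Bif4 and overlapped with the wildtype range of 1753 to 3738. The median log2 fold change of the 8 was 1.01. Without replicate 1 of Bif1;Bif4 this median was 0.37, and CCR passed neither without that library nor without replicate 2 of Bif1;Bif4, wildtype replicate 1 or wildtype replicate 2. Of 18 tested photosynthesis genes, Ppdk1 rose and the ferredoxin gene fdx3 fell by 0.51, and 13 of the 18 values were positive with a median log2 fold change of 0.066. The summed level of all 32 members, tested or not, was 17209.5 to 17288 in Bif1;Bif4 against 17505 to 19381 in wildtype. In the anther and meiosis list afd1, which encodes a meiotic cohesin, rose by 0.44 and ocl4 fell, among 8 tested. The part of these cell types in the results above was not tested.

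The remaining lists are read beside the 2.23% of all genes tested that rose and the 2.05% that fell. Of 19 tested cell cycle genes only wee1, a kinase gene that restrains entry into mitosis, changed, falling by 0.62 ± 0.09, a share near the background. The histone genes his2b5, H1 and H4C13 fell by 0.53, 0.48 and 0.48, being 3 of 8 tested. H4C13 did not pass with edgeR (Benjamini-Hochberg adjusted p = 0.0505), and none of the 3 passed with limma without either Bif1;Bif4 library, without wildtype replicate 1 or 2, or with the spread of all 9 libraries. Of 30 tested cytosolic ribosomal protein genes, rps13 fell by 0.38, the median log2 fold change was -0.15 and 26 values were negative. In detoxification 3 of 35 tested genes rose, namely GLB1, the glutathione transferase gene gst6 by 1.13 and the peroxidase gene PER1 by 0.88. In stress hormones and defence 3 of 50 rose and 2 fell, all of them AP2/ERF genes, with EREB179 rising by 3.41 from 1.0, 1.9 and 1.1 normalized counts to 18.8 and 29.3. In sex determination and jasmonate synthesis 1 of 42 rose, the lipoxygenase gene lox11 by 1.20 ± 0.14, a share near the background.

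Of 154 identifiers of microRNA precursor transcripts, only 14 were tested. Their median log2 fold change was -1.41, but this describes the filter as well as the transcripts, since a precursor with few reads could pass it through the wildtype libraries alone. With a wildtype library left out 9 or 10 were tested, with a Bif1;Bif4 library left out 14, and at a minimum count of 50 only 2, with a median of -0.69. MIR167d, whose family targets ARF transcripts, stood at 3.6 and 13.6 normalized counts in Bif1;Bif4 and at 69.3, 70.8 and 42.3 in wildtype, a log2 fold change of -2.88 ± 0.53 (Benjamini-Hochberg adjusted p = 0.0372, limma). MIR390a, whose family triggers the small RNAs that act on ARF transcripts, stood at 83.0 and 75.2 against 32.7, 30.6 and 20.6, a rise of 1.49 ± 0.29 (Benjamini-Hochberg adjusted p = 0.0399, limma). The other 12 did not pass, and most lay under 50 normalized counts in every library. The summed level of all 154 identifiers was 234 and 254 against 359, 436 and 316.

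The ndl1 tassels were harvested at the same length and, per the labels, included severely affected ones with few axillary meristems. Each of the 90 selected genes was compared directly between Bif1;Bif4 and ndl1, with the 9 libraries scaled together. The difference passed for 20 of the 90 (limma, Benjamini-Hochberg adjusted p under 0.05), of which 12 were lower in Bif1;Bif4 than in ndl1 and 8 higher. Among all genes tested 3.47% passed, 1.79% lower and 1.68% higher, but most of the 90 genes were selected for their difference between the same Bif1;Bif4 libraries and wildtype, which raises their share. Without replicate 1 or replicate 2 of Bif1;Bif4 the difference passed for 8 or 6 of the selected genes. On this scale the level of BA1 was 99.4 ± 59.2 in ndl1 (normalized counts, SD, n = 4) and 3.79 in Bif1;Bif4 on average, a difference of -4.33 ± 0.46 log2 units (Benjamini-Hochberg adjusted p = 0.00144, limma). The genes baf1, BAD1, OFP28, ra1 and ra3 were also lower in Bif1;Bif4 than in ndl1, with differences of -2.39, -2.53, -2.36, -3.97 and -4.28 log2 units.

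The chaperone genes hsp22, CPNB and CNX were lower in Bif1;Bif4 too, with differences from ndl1 of -4.68 ± 0.76, -1.03 ± 0.13 and -0.66 ± 0.10 log2 units. Not all of the genes that were lower than in ndl1 lay below wildtype. BURP10 averaged 233 normalized counts in Bif1;Bif4, 496 in ndl1 and 73.2 in wildtype, and afd1 averaged 970.2, 1587 and 714. For these genes ndl1 lay further from wildtype. In contrast, rps13 was lower in Bif1;Bif4 than in both, averaging 3117 against 4010 in ndl1 and 4056 in wildtype. Its difference from ndl1 was -0.36 ± 0.08 log2 units. The level of hsp22 in ndl1 was 1896 ± 954 (normalized counts, SD, n = 4). Higher in Bif1;Bif4 than in ndl1 were EDS by 3.50, MIR390a by 1.92, sbp2 by 1.26, fea3 by 1.10, D8 by 0.52 and EREB161 by 0.41, and both unnamed identifiers, which had no read in ndl1. For MADS36, nam1 and TD1 the difference between the mutants did not pass, at -0.98 ± 0.27, -0.67 ± 0.26 and 0.16 ± 0.28 log2 units (limma, Benjamini-Hochberg adjusted p = 0.0966, 0.204 and 0.802).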

How the data were processed

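Per the labels' protocols, frozen tassels gave RNA by column extraction with DNase treatment, and stranded mRNA libraries were made. The submitters' processing notes name Trimmomatic, TopHat2 2.1.1, HTSeq and DESeq2. Which genome build, annotation and strand setting served is not given in the sources used here, so antisense, overlapping and near-identical genes (heat shock, histone and CPN60 copies) are uncertain.

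The deposited signal values are counts that the authors divided by DESeq2 size factors, per the file headers and the values. Divided by the worth of 1 read, 100% of values in each library came out whole (tolerance 0.1 reads), and edgeR (4.0.16) on these recovered reads gave 944 genes. The log2 fold changes and their errors, the p-value columns and the test statistic, a score, were deposited by the authors from DESeq2, per the file headers. Of 39305 identifiers 9333 had no read in the 5 libraries, and 18476 matched 1 RefSeq gene of Zm-B73-REFERENCE-NAM-5.0, used for names and gene order.

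Genes kept by edgeR's filterByExpr at a minimum count of 10 were tested on the scale log2(normalized count + 1) by limma 3.58.1 (trend option, R 4.3.3), and Benjamini-Hochberg adjusted p-values under 0.05 passed. The added 1 understates changes of low genes. A gene can pass the filter through the genotype where it is high, so list medians describe tested members only. The code was tested on simulated data. DESeq2 (1.42.0) and other settings were alternatives. Members of the 24 lists and the named genes were chosen with earlier results of these data known. The rule for naming took BIF1 and BIF4, the 12 largest rises and falls with a name, no overlap and a mean of at least 50, the inflorescence list members, up to 4 called members per other list, and the 2 largest rises and falls of any annotation; other list members that passed were named after their values were seen. Same-genotype libraries differed beyond counting noise (chi-square per degree of freedom 9.80 to 18.1), so none was counted as a copy. Intervals and floors cover counting error only.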

Additional observations from a re-analysis of the deposited data

How the results depend on the processing

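Pseudocounts of 0.5 and 5, TMM scaling, a minimum count of 50 and edgeR moved the 957 calls to between 876 and 986, and no filter on low counts gave 782 of 29972 genes. DESeq2 gave 2105 (1093 higher, 1012 lower). A spread estimated from all 9 libraries gave 675. Leaving out each library in turn gave 1 to 1299 calls, 0 to 737 of them higher and 1 to 562 lower. Whether replicate numbers pair the samples could not be decided. Deviations from the group mean correlated at -0.217 and -0.172 between same-numbered libraries. With only 2 Bif1;Bif4 libraries these deviations mirror each other, so the values are not independent. With the replicate block 431 genes passed (236 higher, 195 lower). All calls that could be tested kept their direction under each of these settings. For libraries left out and for the block, the lack of overlap between the groups fixed this in advance.

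For the direct comparison with ndl1, 20 of the selected genes passed, against 31 with DESeq2, 12 with the replicate block and 6 to 22 without each library in turn. The cause of these shifts in the counts was not tested. Of the 90 selected genes, 4 lost their call with edgeR, 13 without a filter, 1 at a minimum count of 50, 18 with the spread of all 9 libraries and 34 with the block, while DESeq2 added 9. No gene that had passed changed sign, which the lack of overlap fixed in advance where libraries were left out. Signs changed for 8 genes that did not pass, and over the libraries left out their log2 fold changes ran from -1.36 to 0.34 for BIF1 (AUX22, positive without replicate 1 of Bif1;Bif4) and from -0.76 to 0.060 for sid1 (EREB121, likewise). For wus1 they ran from -1.41 to 0.0060 (likewise), and for abph1 from -0.29 (without replicate 2 of Bif1;Bif4) to 1.16. For gt1 they ran from -1.56 to 0.70 (without replicate 2 of Bif1;Bif4), with 0.22 without wildtype replicate 2. For ct2 they ran from -0.083 (without replicate 2 of Bif1;Bif4) to 0.12, with -0.039 without wildtype replicate 1. For rel2 they ran from -0.14 to 0.0012 (without wildtype replicate 1), and for dcl1 from -0.12 to 0.026 (without wildtype replicate 2). Depth limits the microRNA precursors and genes such as zmm6 and wus1, with few reads per library.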

Other observations

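These observations were chosen after their values were seen. In the gene order of the RefSeq table, the 100 tested genes nearest to BIF1 held 11 that passed the test, or 11.0%, and all 11 were higher in Bif1;Bif4. Of the nearest 200, 22 passed, with 19 higher and 3 lower, and of the nearest 50, 4 passed. Among all 14798 tested genes with a place in that order, 4.47% passed. Around BIF4 the counts were 3 of 100 and 7 of 200.

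Of the genes that passed, 19 had no read in any wildtype library. They passed the filter on low counts through Bif1;Bif4 alone and could only be higher there. Of these, 14 also had no read in any ndl1 library and 18 had at most 3 there, while 2 matched a RefSeq gene and 0 had a descriptive name. In the other direction, 5 genes that passed had no read in Bif1;Bif4, and 0 of these were without reads in ndl1. The share of all genes tested that lacked reads in a genotype was not counted.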
